A study of Mus musculus with 5 samples.

Results

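The genes described here are 10 regulators of apoptosis and of the p53 response, taken by name from the 27998 gene rows of 5 single-cell libraries of mouse bone marrow. They are 3 survival genes of the BCL-2 family (Bcl2, Bcl2l1 and Mcl1), the pore-forming effector Bax, 3 BH3-only genes (Bcl2l11, Bbc3 and Pmaip1) and 3 further p53 targets (Cdkn1a, Ccng1 and Trp53inp1). All 10 had unique molecular identifiers (UMIs, counted RNA molecules) in every library. Their levels were followed through stages of B-cell development, through dividing and resting cells, in myeloid cells and with age. The aged group was 2 libraries from mice over 20 months old (replicates 2 and 3), and the young group was 3 libraries from mice of 10 to 12 weeks (replicates 1, 2 and 3). Mice of both groups were of the strain Nes-GFP, whose name refers to a green fluorescent reporter of nestin. Per the labels, cells that lacked CD45 and carried CD31 were sorted as endothelial cells from the endosteal part of the marrow, frozen, thawed and loaded for 3' end counting. The labels do not say how many animals entered a library, so p-values measure the spread between libraries.

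BCL-2 family proteins decide at the outer mitochondrial membrane whether a cell dies. BCL-2, BCL-XL (from Bcl2l1) and MCL-1 hold the effectors BAX and BAK in check. BH3-only proteins such as BIM (Bcl2l11), PUMA (Bbc3) and NOXA (Pmaip1) bind the survival proteins or activate the effectors. The factor p53 induces several of these genes and Cdkn1a, which encodes the cell cycle inhibitor p21. In B-cell development, MCL-1 is needed from the progenitors on, BCL-XL is known to keep precursors alive after the pre-B-cell receptor has signalled, and BIM removes cells that fail selection.

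Most of the sorted cells carried B-lineage transcripts and not endothelial ones, which goes against the labelled cell type. Of 3384 deposited barcodes, 2116 passed the quality limits, and 1903 of those fell in 7 clusters rich in B-lineage markers, among them Cd79a, Cd79b, Ebf1 and Pax5. The markers summed to 8954 to 12971 CPM in their dividing and 13847 to 17568 CPM in their resting cells, against 775 CPM in myeloid-like cells, where they were also detected. CPM is the counts-per-million scale, a gene's UMIs divided by all UMIs of the class in a library. These 1903 cells are called B-lineage-like. A myeloid-like cluster held 185 cells, and a cluster of 23 cells was led by bone matrix genes and held the endothelial markers. Total UMIs per library ranged from 935656 to 5900751. Young replicate 1 stands apart from the rest, with the highest total, 584 of the 738 dividing B-lineage-like cells and 173 of the 185 myeloid-like cells. Across libraries, 5 pairs of kept cells shared a barcode. The members and the genes of 8 pathway lists were left out when the cells were clustered.

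The stage gates used marker genes and no member. A resting cell had at most 1 of 35 cell cycle genes detected and a dividing cell at least 3, after each cell was thinned to 1000 UMIs. Resting cells were placed in 4 stages: MHC-II-positive (234 cells), surrogate light chain-positive (319 cells, by Vpreb1, Vpreb2, Igll1 and Dntt), Cd2 or Ms4a1-positive (237 cells) and Rag-positive without the other markers (55 cells), while 196 resting cells met no gate. Surrogate light chain is made before a conventional light chain exists, Rag genes mark the recombination of immunoglobulin genes, and MHC class II genes appear at high level in the later cells.

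Each member occupies one protein-coding locus on GRCm38 (GENCODE M21). Bcl2 (ENSMUSG00000057329, chr1:106538178-106714274, minus strand), Bcl2l1 (ENSMUSG00000007659, chr2:152780668-152831728, minus strand) and Mcl1 (ENSMUSG00000038612, chr3:95658788-95663176, plus strand) encode the survival proteins. Bax (ENSMUSG00000003873, chr7:45461697-45466898, minus strand) encodes the effector. The BH3-only genes are Bcl2l11 (ENSMUSG00000027381, chr2:128126038-128162547, plus strand), Bbc3 (ENSMUSG00000002083, chr7:16308393-16318205, plus strand) and Pmaip1 (ENSMUSG00000024521). Cdkn1a (ENSMUSG00000023067) lies at chr17:29090976-29100727 on the plus strand. Ccng1 (ENSMUSG00000020326, chr11:40748552-40755311, minus strand) encodes cyclin G1, and Trp53inp1 (ENSMUSG00000028211, chr4:11156431-11174379, plus strand) encodes a nuclear partner of p53 that also takes part in autophagy.

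The bases just before the annotated starts of Cdkn1a and Bcl2l1 are shown because these were the 2 members that differed between resting stages. Each run is the 250 bases before a RefSeq start on GRCm38.p6, read 5′ to 3′ on the gene's strand, at chr17:29090729-29090978 for Cdkn1a and chr2:152831729-152831978 for Bcl2l1. Capitals mark matches to the p53 decamer, the repeated unit of a p53 response element (searched by its degenerate consensus), in Cdkn1a and to the E-box CANNTG, the short motif bound by E proteins, in Bcl2l1.
Cdkn1a: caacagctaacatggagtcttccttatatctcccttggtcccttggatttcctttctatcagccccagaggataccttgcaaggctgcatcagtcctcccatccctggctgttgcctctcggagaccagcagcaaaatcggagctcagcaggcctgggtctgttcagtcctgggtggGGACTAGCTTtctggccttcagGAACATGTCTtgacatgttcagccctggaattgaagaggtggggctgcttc
Bcl2l1: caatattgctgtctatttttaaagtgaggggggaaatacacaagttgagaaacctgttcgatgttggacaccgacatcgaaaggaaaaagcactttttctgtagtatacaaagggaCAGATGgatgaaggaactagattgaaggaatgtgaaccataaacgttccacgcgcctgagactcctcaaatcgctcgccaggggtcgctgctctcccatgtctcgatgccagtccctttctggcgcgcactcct
The Cdkn1a window held 2 p53 decamer matches and 0 E-boxes, and the Bcl2l1 window held 1 E-box and 0 decamers. A second Cdkn1a start, further downstream, had 1 E-box and 0 decamers before it, and each of the other Bcl2l1 starts had 1 E-box. Both strands were searched. Of 32851 windows of the same length, 7.13% held a p53 decamer match and 66.2% an E-box, while the STAT motif TTCNNNGAA was in 7.02% and the FOXO motif TGTTTAC in 3.17%, with no match of either in these windows. These matches describe letters and say nothing of binding in these cells.

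Across the resting stages, Cdkn1a was high in surrogate light chain-positive cells and low in the 3 later stages, and Bcl2l1 took the opposite course. Cdkn1a had 14.8 and 23.2 CPM in MHC-II-positive cells of the aged libraries, and 27.8, 12.0 and 49.4 CPM in those of the young libraries. In surrogate light chain-positive cells it had 168 and 225 CPM in the aged and 165, 256 and 155 CPM in the young libraries. No library of the MHC-II-positive stage reached any library of the surrogate light chain-positive stage. Cdkn1a fell in MHC-II-positive cells, with a log2 fold change of -2.92 ± 0.34 (SE, 5 libraries, lower in 5 of 5; edgeR, adjusted p = 2.22e-11).

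Rag-positive and Cd2 or Ms4a1-positive cells held hardly any Cdkn1a. In the 3 libraries with at least 10 Rag-positive cells the stage summed to 3 Cdkn1a UMIs, against 127 in surrogate light chain-positive cells of the same libraries. The pooled level was 31.1 CPM, against 204 CPM, a ratio of 0.152 (exact 95% counting interval 0.0309 to 0.455). In the 4 libraries with at least 10 such cells, Cd2 or Ms4a1-positive cells summed to 3 UMIs, all of them in aged replicate 3. Surrogate light chain-positive cells of the same libraries held 158, which gave a ratio of 0.0343 (0.00701 to 0.102). Without aged replicate 3 the stage held 0 UMIs in these libraries. Young replicate 1, left out with 8 such cells, held 1 UMI. Both differences passed the test of edgeR, at adjusted p = 0.0026 for the Rag-positive and 1.47e-13 for the Cd2 or Ms4a1-positive stage. The call in Rag-positive cells was lost in 3 of 14 alternatives, at adjusted p between 0.0678 and 0.504, and the stage's level rests on 3 molecules. Between MHC-II-positive and Cd2 or Ms4a1-positive cells the 12 and 3 UMIs of Cdkn1a did not differ past the threshold (edgeR, log2 fold change 1.81 ± 0.79, adjusted p = 0.289).

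Bcl2l1 was low in surrogate light chain-positive cells and higher in each later stage. Its level there was 24.1 and 4.70 CPM in the aged libraries, and 18.4, 51.2 and 34.9 CPM in the young ones. Rag-positive cells had 163 and 131 CPM in the aged libraries and 187 CPM in young replicate 2, the libraries with at least 10 such cells. Cd2 or Ms4a1-positive cells had 99.996 and 191 CPM in the aged libraries and 139 and 181 CPM in young replicates 2 and 3. MHC-II-positive cells had 119 and 85.0 CPM in the aged libraries and 97.4, 108 and 107 CPM in the young ones. All 12 of these later sums lay above the highest surrogate light chain-positive sum.

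The rise of Bcl2l1 over surrogate light chain-positive cells was 2.66 ± 0.55 (log2, SE) in Rag-positive cells (edgeR, adjusted p = 0.000229; higher in 3 of 3 libraries). It was 2.52 ± 0.35 in Cd2 or Ms4a1-positive cells (adjusted p = 5.13e-09; 4 of 4 libraries) and 1.96 ± 0.36 in MHC-II-positive cells (adjusted p = 7.67e-06; 5 of 5 libraries), both by edgeR. With every cell thinned to 1000 UMIs the MHC-II-positive difference was 1.08 and lost its call (edgeR, adjusted p = 0.276). Gates on unthinned counts ended the Rag-positive call (log2 fold change 1.82, adjusted p = 0.579, edgeR), while the Cd2 or Ms4a1-positive call held under all 15 alternatives. Neighbouring later stages did not differ past the threshold, at -0.15 ± 0.44 for Cd2 or Ms4a1-positive against Rag-positive and -0.56 ± 0.30 for MHC-II-positive against Cd2 or Ms4a1-positive cells (edgeR, adjusted p = 0.986 and 0.418).

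**Figure D1:**
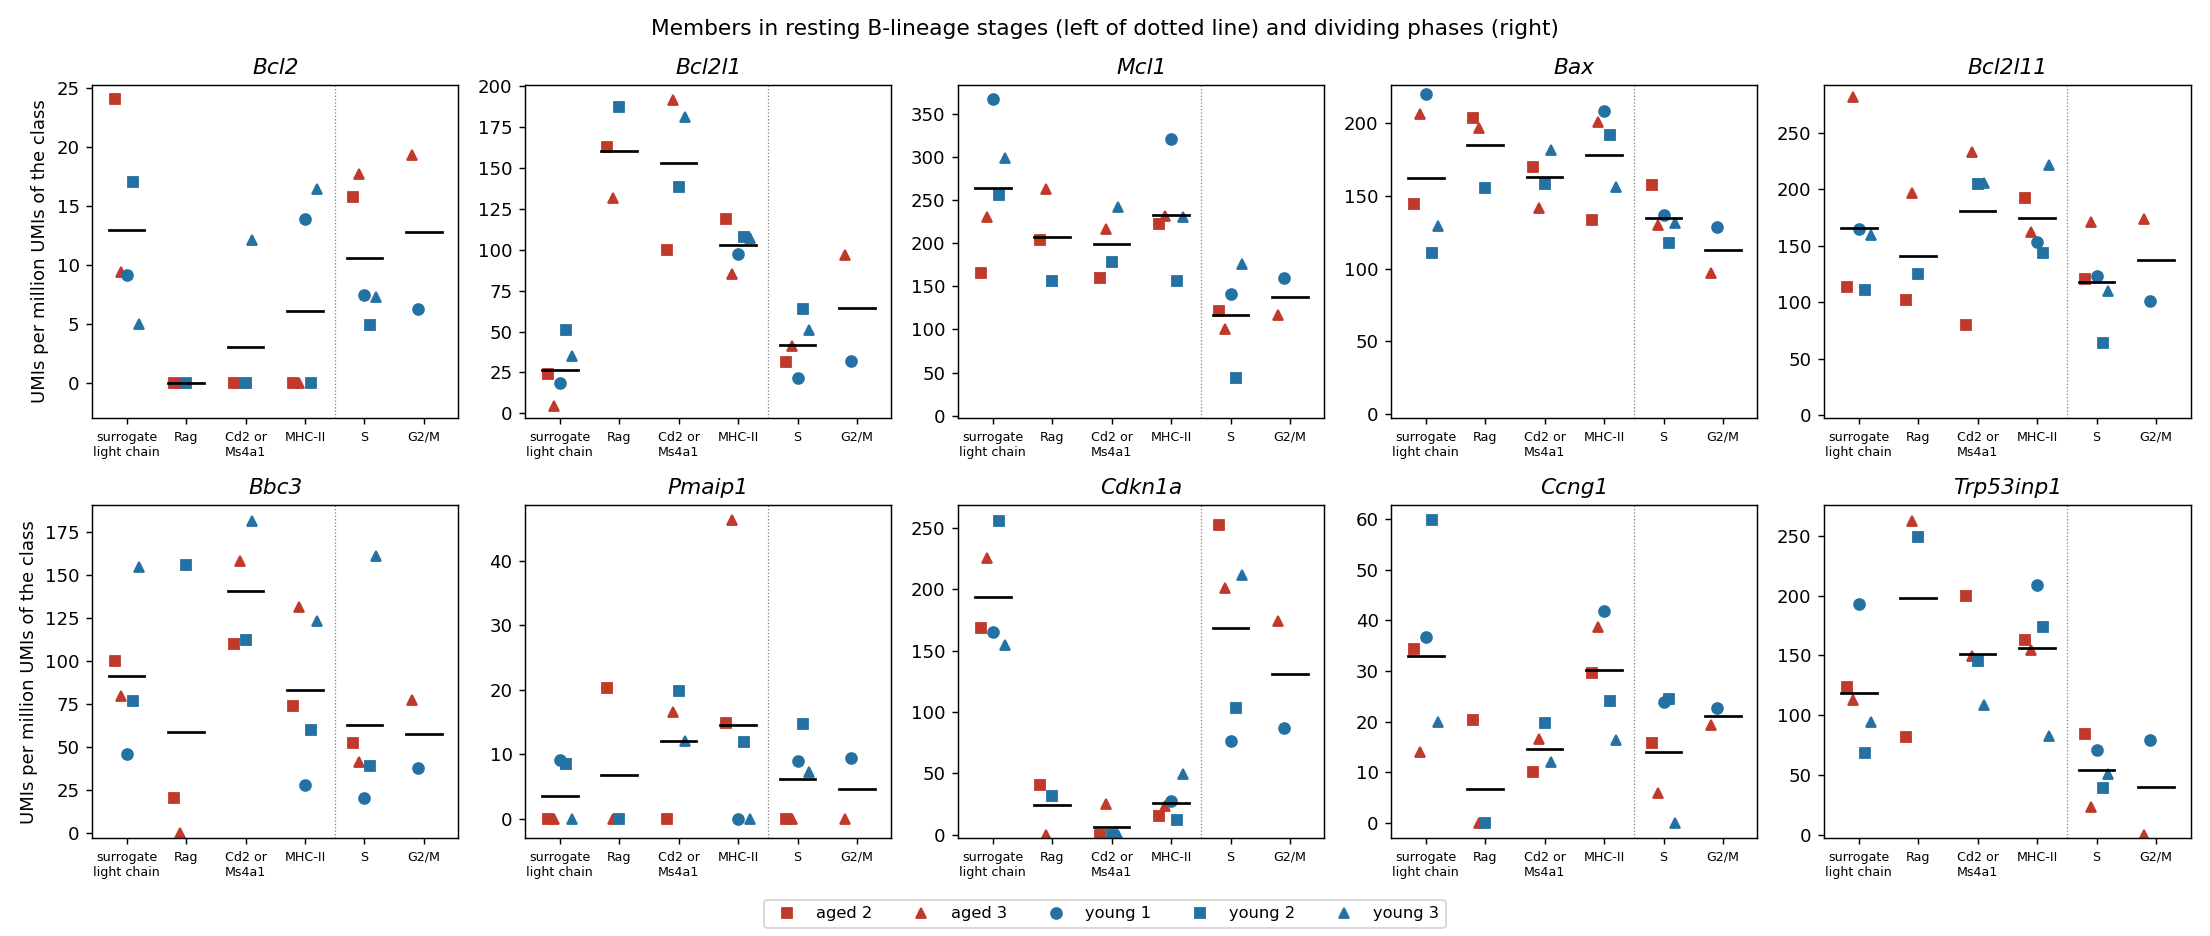
Level of each member (vertical axes, CPM within the class, each panel with its own linear scale) in the 4 resting stages and in S and G2/M cells (horizontal axes); a point is a library sum of at least 10 cells, aged in red and young in blue, and a bar is the mean over libraries. Cdkn1a is high in surrogate light chain-positive and S-phase cells, where every Bcl2l1 sum lies below its sums in the 3 later resting stages.

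Of the 10 members, 7 passed the filter on low counts in the stage fit, and Cdkn1a and Bcl2l1 were the 2 called against surrogate light chain-positive cells in each of the 3 later stages. Among all 2856 genes tested, 21.9% were called between MHC-II-positive and surrogate light chain-positive cells, 10.5% between Rag-positive and surrogate light chain-positive cells and 26% between Cd2 or Ms4a1-positive and surrogate light chain-positive cells. With 7 members tested, these shares are a background against which 2 calls are read as no result about the members as a group. No member was called between Cd2 or Ms4a1-positive and Rag-positive cells, where 0.105% of genes were, or between MHC-II-positive and Cd2 or Ms4a1-positive cells, where 1.61% were.

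The other 5 tested members showed no stage difference past the threshold. Mcl1 had 222 and 232 CPM in MHC-II-positive cells of the aged libraries and 320.1, 156 and 230.4 CPM in those of the young libraries. In surrogate light chain-positive cells it had 165 and 230.2 CPM in the aged and 367, 256 and 299 CPM in the young libraries. The ranges overlapped, and the log2 fold change was -0.20 ± 0.18 (edgeR, adjusted p = 0.523). Between the same stages, Bcl2l11 differed by 0.01 ± 0.22, Bax by 0.16 ± 0.21, Bbc3 by -0.13 ± 0.29 and Trp53inp1 by 0.39 ± 0.24 (log2, SE; edgeR, adjusted p from 0.271 to 0.988).

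Other genes of the pathway were read from 8 lists by their counts in the comparison of MHC-II-positive with surrogate light chain-positive cells. Survival input is the list of receptors, kinases and transcription factors upstream of the family. It includes Foxo1, a transcription factor of pro-apoptotic genes among others, so its counts give no direction of survival. The list had 7 of 9 genes tested, of which 4 were higher, 0 lower and 3 not called. Its median log2 fold change was 0.75, against 0.00 over all genes. Tnfrsf13c, the BAFF receptor, rose by 1.63 ± 0.20, Pim2, a survival kinase, by 2.29 ± 0.48, and Il7r, the interleukin 7 receptor, by 0.75 ± 0.22 (log2, SE; edgeR, adjusted p = 3.93e-11, 7.88e-05 and 0.00587). Of 3 inhibitors of apoptosis tested, 1 was lower, Cflar, an inhibitor of caspase-8 activation, at -1.07 ± 0.33 (edgeR, adjusted p = 0.00982). None of the 5 further p53 targets, 4 genes of the p53 network, 2 effectors or BH3-only genes and 2 caspases or apoptosome genes tested was called.

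The same lists were read in Cd2 or Ms4a1-positive against surrogate light chain-positive cells. Among the further p53 targets, Btg2, an anti-proliferative gene, rose by 0.67 ± 0.13 and Rrm2b, a ribonucleotide reductase subunit, by 1.57 ± 0.35 (log2, SE; edgeR, adjusted p = 1.19e-05 and 0.000226), with 0 of 5 lower. Of 2 effectors and BH3-only genes tested, Bmf, a BH3-only gene, rose by 1.18 ± 0.27 and Bak1, the effector BAK, fell with a log2 fold change of -1.27 ± 0.42 (edgeR, adjusted p = 0.000363 and 0.0172). Survival input had 4 of 7 higher and 0 lower, led by Pim2 at 3.17 ± 0.43 (edgeR, adjusted p = 2.55e-09). Cflar was again lower, by -1.08 ± 0.36 (log2; edgeR, adjusted p = 0.0166), the 1 called of 3 inhibitors of apoptosis.

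Some transcripts of other cell types moved with the stages. The 9 erythroid markers summed to 174 to 338 CPM over the libraries in surrogate light chain-positive cells, against 27.8 to 104 CPM in MHC-II-positive and 13.2 to 74.9 CPM in Cd2 or Ms4a1-positive cells. Of the 205 erythroid UMIs in surrogate light chain-positive cells, 165 were Car2 (carbonic anhydrase II) and 17 were the globin Hbb-bs, and 3 of the 9 markers were at 0. The 12 endothelial markers summed to 49.8 to 141 CPM, of which Egfl7 gave 67 of 84 UMIs and 2 markers were at 0, against 0 to 41.8 CPM in MHC-II-positive cells, where 8 were at 0. Progenitor markers summed to 24.9 to 89.3 CPM in surrogate light chain-positive cells, against 0 to 12.0 CPM in MHC-II-positive cells. Handling genes, which cells induce during isolation, summed to 4800.4 to 8413 CPM in Rag-positive, 3469 to 7621 CPM in Cd2 or Ms4a1-positive and 2723 to 4904 CPM in MHC-II-positive cells, against 2842 to 4438 CPM in surrogate light chain-positive cells. Of 7 tested against surrogate light chain-positive cells, 2 were higher in Rag-positive cells, 3 higher and 1 lower in Cd2 or Ms4a1-positive and 2 lower in MHC-II-positive cells (edgeR). The median mitochondrial share was 2.89% in surrogate light chain-positive, 3.47% in Rag-positive, 3.88% in Cd2 or Ms4a1-positive and 4.17% in MHC-II-positive cells. The median depth was 2708 UMIs per surrogate light chain-positive cell, 2046 per Rag-positive, 1929 per Cd2 or Ms4a1-positive and 2220.5 per MHC-II-positive cell. The part of these transcripts, of handling, of mitochondrial share and of depth in the stage differences was not tested, apart from the thinned values given above.

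Counted per cell at equal depth, the 2 genes showed the same order. After thinning to 1000 UMIs, 16.3% of surrogate light chain-positive cells held a Cdkn1a UMI (exact binomial 95% interval 12.4 to 20.8). The share was 3.64% of Rag-positive (0.443 to 12.5), 0.844% of Cd2 or Ms4a1-positive (0.102 to 3.01) and 2.56% of MHC-II-positive cells (0.947 to 5.50). The Rag-positive interval, from 55 cells, just overlapped that of surrogate light chain-positive cells. Unthinned, the shares were 31.3%, 3.64%, 1.69% and 5.98% in the same order. Bcl2l1 was found in 2.51% of surrogate light chain-positive cells (1.09 to 4.88), against 20.0% of Rag-positive (10.4 to 33.0), 14.8% of Cd2 or Ms4a1-positive (10.5 to 19.9) and 7.26% of MHC-II-positive cells (4.29 to 11.4). Without thinning the Bcl2l1 shares were 6.58%, 27.3%, 22.8% and 19.7%. The intervals cover counting error only, and no cell class here is known to lack either gene, so the share that free RNA alone gives was not measured.

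As a share of RNA, B-lineage-like cells in division differed by edgeR from resting ones in all 7 members tested, with more Cdkn1a and less of the other 6. Less does not mean fewer molecules per cell, since dividing cells held more UMIs each. Over the libraries, Mcl1 averaged 0.696 UMIs per dividing cell and 0.575 per resting cell, and Bcl2l1 0.276 and 0.207. The count has to be read against all 4916 genes, of which 49.3% were called in this comparison. The members' median log2 fold change was -0.67, against -0.04 for all genes tested. Each library contributed both classes, and the library was a term of the fit.

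Cdkn1a had 237 and 195 CPM in dividing cells of the aged libraries and 80.6, 135 and 216 CPM in those of the young libraries. In resting cells it had 83.9 and 94.0 CPM in the aged and 91.0, 62.8 and 77.8 CPM in the young libraries. It was higher in dividing cells of 4 of 5 libraries, and young replicate 1 was the exception. The log2 fold change was 1.12 ± 0.19 (SE; edgeR, adjusted p = 1.4e-05), and the call held under all 15 alternatives.

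Trp53inp1 and Mcl1 were lower in dividing cells without overlap. Trp53inp1 had 71.2 and 18.1 CPM in dividing cells of the aged libraries and 74.3, 38.5 and 47.2 CPM in those of the young ones. Resting cells had 133 and 140.2 CPM in the aged and 208, 145 and 108 CPM in the young libraries. The log2 fold change was -1.46 ± 0.20 (edgeR, adjusted p = 5.75e-07) and held under all 15 alternatives.

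Mcl1 had 123 and 104 CPM in dividing cells of the aged libraries and 149, 84.8 and 162 CPM in those of the young ones. Its resting level was 174 and 213 CPM in the aged and 338, 192 and 243 CPM in the young libraries. Every resting sum lay above every dividing sum, at a log2 fold change of -0.85 ± 0.15 (SE; edgeR, adjusted p = 1.69e-05). This is a share of the cell's RNA, and dividing cells had a median of 4181.5 UMIs and resting cells 2228. Counted per cell, the mean of Mcl1 was higher in dividing cells, as given above, though young replicate 1 had 0.805 UMIs per dividing and 0.907 per resting cell. Sums of thinned cells, which are shares too, gave -0.49 for Mcl1, past no threshold (edgeR, adjusted p = 0.111).

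Bcl2l1 had 35.6 and 54.3 CPM in dividing cells of the aged libraries and 25.9, 65.5 and 47.2 CPM in those of the young ones. In resting cells it had 69.6 and 89.1 CPM in the aged and 52.0, 122 and 81.8 CPM in the young libraries. It was lower in dividing cells of 5 of 5 libraries although the ranges overlapped, at -0.80 ± 0.21 (log2, SE; edgeR, adjusted p = 0.00217). Thinned sums ended this call too (-0.63, edgeR adjusted p = 0.262).

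The 3 remaining genes moved less. Bbc3 was lower by -0.67 ± 0.21 in 4 of 5 libraries, Bcl2l11 by -0.42 ± 0.16 in 5 of 5 and Bax by -0.36 ± 0.15 in 4 of 5 (log2 fold change, SE; edgeR, adjusted p = 0.0108, 0.0276 and 0.0466). Bbc3 differed between libraries more than between classes: young replicate 3 had 155 CPM in dividing and 152 CPM in resting cells, while young replicate 1 had 27.5 and 43.3 CPM. DESeq2 called none of the 3 genes, at adjusted p = 0.0524 for Bbc3, 0.119 for Bcl2l11 and 0.184 for Bax. The Bbc3 call was lost under 4 of 15 alternatives, among them leaving out aged replicate 3 (adjusted p = 0.0852, edgeR). Bcl2l11 lost its call under 9 and Bax under 10 of 15, among them leaving out young replicate 2 or 3 for both genes (edgeR, adjusted p from 0.0882 to 0.161) and young replicate 1 or aged replicate 3 for Bax (0.122 and 0.155).

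**Figure D2:**
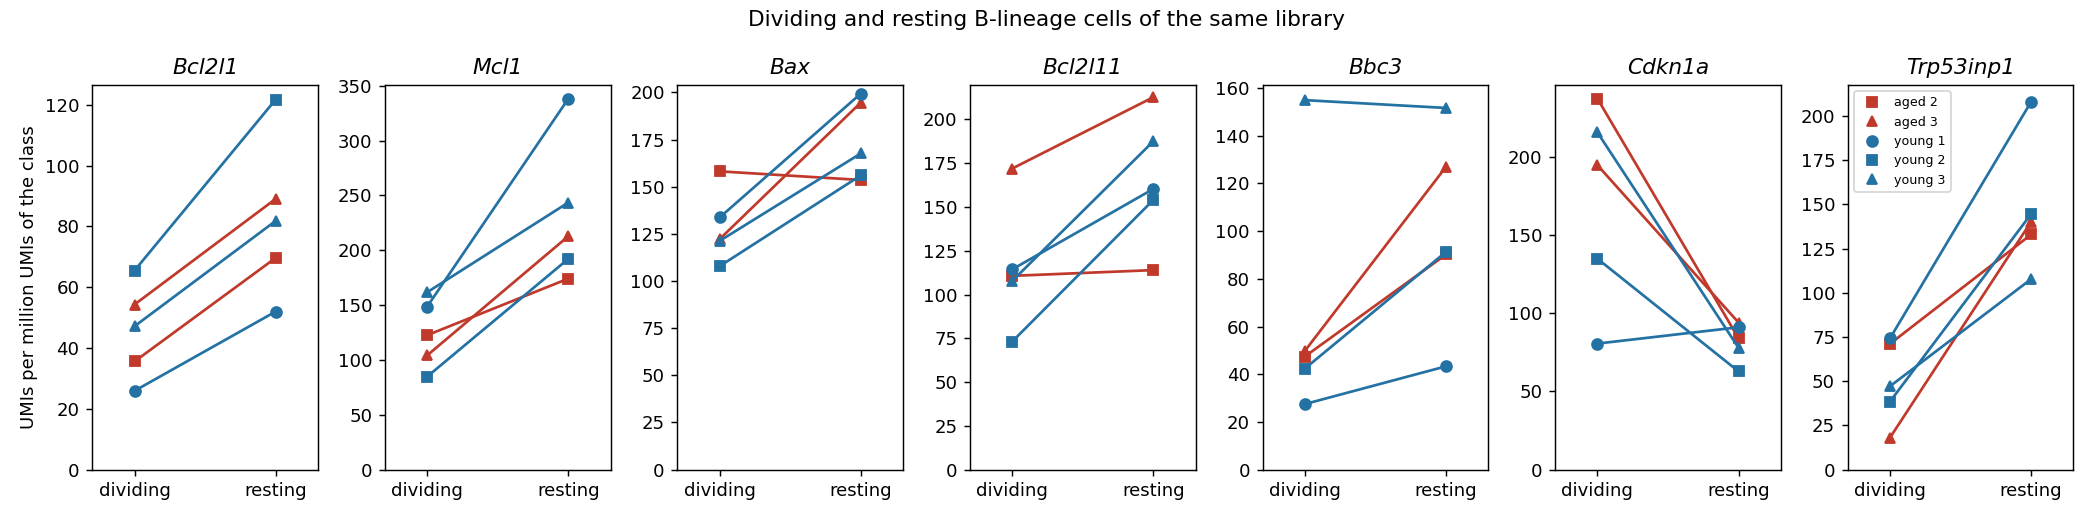
Level of the 7 tested members (vertical axes, CPM within the class, from 0) in dividing cells (left) and resting cells (right) of each library; a line joins the 2 classes of a library, aged in red and young in blue. Mcl1 and Trp53inp1 lie lower in dividing cells of every library, and Cdkn1a lies higher in all but young replicate 1.

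Because the stages differ in Cdkn1a, dividing and resting cells were also compared on each side of the surrogate light chain gate. The side without it pools Rag-positive, Cd2 or Ms4a1-positive, MHC-II-positive and ungated resting cells, and the dividing cells there were not staged further. The gates of the 2 classes were not quite alike. Resting cells that passed both the surrogate light chain and the MHC-II gate were on neither side, while such dividing cells counted as surrogate light chain-positive. Among surrogate light chain-positive cells, dividing cells had 285 and 179 CPM of Cdkn1a in the aged libraries and 87.9, 202 and 177 CPM in the young ones. The resting values of this stage are given above, with 165 CPM in young replicate 1. Pooled over the libraries, the ratio of dividing over resting cells was 0.789 (exact 95% counting interval 0.625 to 0.993), which covers counting error only. The log2 fold change was 0.04 ± 0.22 (SE; edgeR, adjusted p = 0.897), higher in 2 of 5 libraries. Among cells without surrogate light chain, dividing cells had 136 and 205 CPM in the aged and 79.2, 108 and 236 CPM in the young libraries, against 12.1 and 20.7 CPM in resting cells of the aged and 25.3, 4.96 and 17.4 CPM in those of the young libraries. There the classes did not overlap, and Cdkn1a was higher in dividing cells by 3.44 ± 0.32 (log2, SE; edgeR, adjusted p = 3.01e-14). Dividing cells with and without surrogate light chain did not differ past the threshold in Cdkn1a (0.36 ± 0.21, edgeR adjusted p = 0.25). The difference between these 2 contrasts was not tested.

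Mcl1 and Trp53inp1 were lower in dividing cells on both sides of the surrogate light chain gate. With surrogate light chain, Mcl1 fell with a log2 fold change of -1.14 ± 0.21, Trp53inp1 of -0.99 ± 0.25 and Bbc3 of -1.08 ± 0.34 (edgeR, adjusted p = 0.000123, 0.00294 and 0.0112). Those are 3 of 6 members tested, where 49.2% of 2345 genes were called. Bax stood at 0.01 ± 0.20 and Bcl2l11 at -0.46 ± 0.23 there (edgeR, adjusted p = 0.992 and 0.107). Without surrogate light chain, Trp53inp1 was lower by -1.72 ± 0.25, Bcl2l1 by -0.99 ± 0.26, Mcl1 by -0.70 ± 0.19 and Bax by -0.60 ± 0.20 (log2, SE; edgeR, adjusted p = 3.5e-08, 0.00103, 0.00144 and 0.00907). With Cdkn1a that made 5 of 7 members called, where 47.4% of 3488 genes were. Bcl2l11, at -0.48 ± 0.21, and Bbc3, at -0.55 ± 0.27, were not called there (log2, SE; edgeR, adjusted p = 0.0505 and 0.0828), though Bcl2l11 was under 5 of 15 alternatives. Between dividing cells with and without surrogate light chain, 0 of 4 members were called by edgeR, where 16.4% of 1815 genes were. Bax was nearest, at 0.51 ± 0.20 (adjusted p = 0.0843, unadjusted p = 0.0186, edgeR). DESeq2 ended the calls of Bbc3 with (adjusted p = 0.0596) and Bax without surrogate light chain (0.0642), and thinning ended those of Bcl2l1, Mcl1 and Bax without it (edgeR, adjusted p = 0.184, 0.42 and 0.274). Without the library as a term, the calls of Trp53inp1 with (0.0971) and Mcl1 without surrogate light chain (0.093) were lost.

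**Figure D3:**
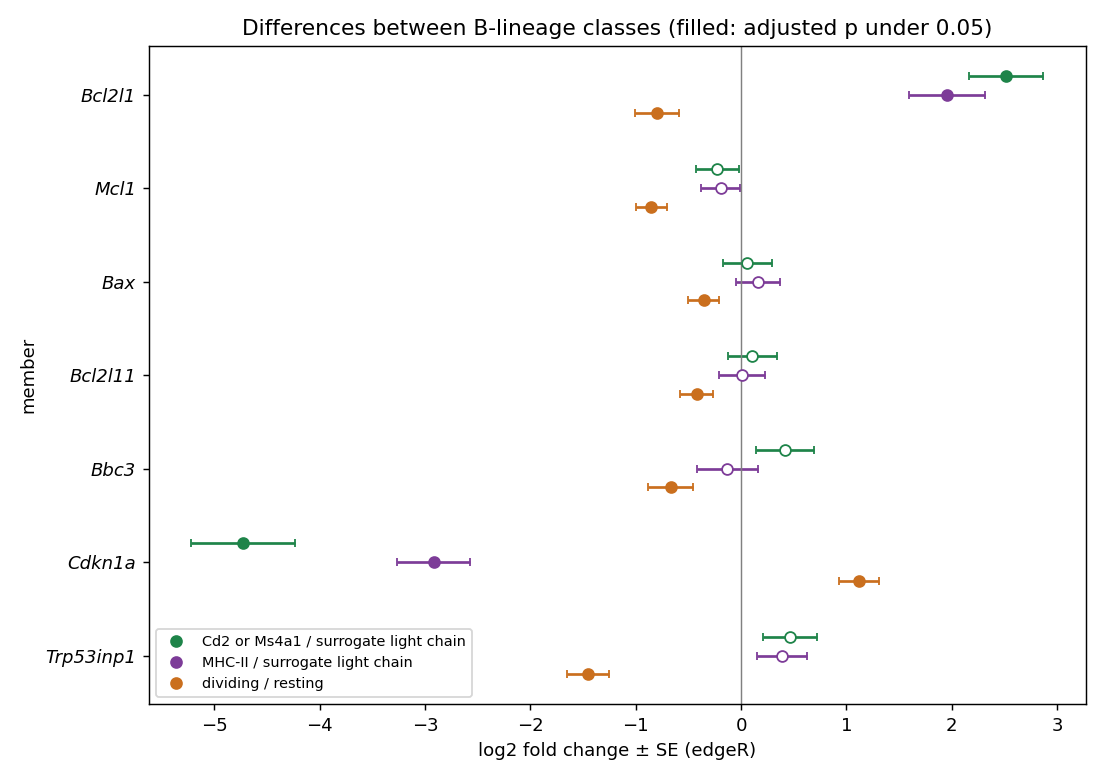
Log2 fold change with its standard error from edgeR (horizontal axis) for the 7 members tested (vertical axis) in 3 comparisons; filled points passed an adjusted p of 0.05. Cdkn1a and Bcl2l1 are the 2 filled members in both stage comparisons and have opposite signs, while all 7 are filled between dividing and resting cells. The Cdkn1a point for Cd2 or Ms4a1-positive cells rests on 3 UMIs.

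The further genes were read against the 49.3% of all genes called between dividing and resting cells, with a median of -0.04. Survival input had 7 of 9 genes tested, of which 5 were lower and 0 higher, with a median of -1.03: Tnfrsf13c was at -1.12 ± 0.13, Foxo1, a transcription factor of pro-apoptotic and B-lineage genes, at -1.03 ± 0.15, and Pim2 at -1.74 ± 0.32 (log2, SE; edgeR, adjusted p = 5.54e-08, 2.03e-06 and 5.2e-05). All 5 inhibitors of apoptosis were tested, and 3 were lower and 0 higher, led by Birc3 at -1.52 ± 0.21 (edgeR, adjusted p = 7.04e-07). The further p53 targets had 7 of 23 tested, with 4 lower and 0 higher at a median of -0.81. Btg2 was at -1.34 ± 0.13, Gadd45a, a growth arrest gene, at -0.81 ± 0.19 and Sesn1, a sestrin, at -1.08 ± 0.27 (log2, SE; edgeR, adjusted p = 4e-10, 0.000727 and 0.0015). The p53 target Cdkn1a, a member, had the opposite sign.

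The caspases and apoptosome list had 5 of 12 genes tested, with 2 higher and 0 lower: Cycs, cytochrome c, at 0.93 ± 0.13 and Casp2 at 0.57 ± 0.23 (log2, SE; edgeR, adjusted p = 5.08e-07 and 0.0428). In the p53 network 5 of 8 were tested and 1 was higher, the phosphatase gene Ppm1d, at 0.79 ± 0.20 (edgeR, adjusted p = 0.00147). Of 3 effectors and BH3-only genes tested, 1 was lower, Bmf, at -1.80 ± 0.24 (edgeR, adjusted p = 4.32e-07). The other anti-apoptotic genes (Bcl2l2, Bcl2l10 and the Bcl2a1 copies) had 0 of 5 tested in each comparison, for want of counts. The genes that answer handling had 7 of 12 tested, with 3 lower and 0 higher in dividing cells, and summed to 2408 to 4176 CPM in dividing against 3153 to 5836 CPM in resting cells. Among surrogate light chain-positive cells, 5 of 5 tested were lower in dividing cells (edgeR). The part of handling in these differences was not tested.

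Within division, no member changed between G2/M and S phase past the threshold. Of 10 members, 4 passed the filter on low counts, where 11.5% of 2425 genes were called. The log2 fold changes of G2/M over S cells were 0.06 ± 0.21 for Cdkn1a, 0.19 ± 0.24 for Mcl1, -0.30 ± 0.21 for Bax and -0.31 ± 0.21 for Bcl2l11 (SE; edgeR, adjusted p from 0.434 to 0.908). The G2/M sums held 7 and 14 cells in the aged libraries and 244, 9 and 5 cells in the young ones, which limits the precision of these values. Gadd45a, which also acts at the G2/M checkpoint, was the 1 further p53 target called of 2 tested, at 1.48 ± 0.28 (edgeR, adjusted p = 0.000382).

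Age changed no member past the threshold in resting, dividing, surrogate light chain-positive or MHC-II-positive cells, the classes in which it was tested. In resting cells 8 of 10 members were tested and 0 were called by edgeR, as were 0% of 6138 genes, of which 125 had an unadjusted p under 0.05. Mcl1 had 174 and 213 CPM in resting cells of the aged libraries and 338, 192 and 243 CPM in those of the young ones. The groups overlapped, and the log2 fold change was -0.47 ± 0.31 (SE; edgeR, adjusted p = 1.0). The other 7 lay between -0.22 for Bcl2l1 and 0.16 for Cdkn1a, with standard errors of 0.28 to 0.45.

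In dividing cells 7 members were tested and 0 called by edgeR, as were 0% of 4080 genes, of which 150 had an unadjusted p under 0.05. Cdkn1a was higher in the aged mean, with the values by library given above. Young replicate 3, at 216 CPM, lay between the aged libraries at 237 and 195 CPM, so the groups overlapped. The log2 fold change was 0.66 ± 0.36 (SE; edgeR, unadjusted p = 0.0775, adjusted p = 0.99). Bcl2l11 had 111 and 172 CPM in the aged libraries and 114, 73.2 and 108 CPM in the young ones, again with overlap (0.38 ± 0.34, edgeR adjusted p = 0.99). Pmaip1 had 0 UMIs in both aged libraries, where a limit of 3 UMIs allows 11.9 and 13.6 CPM, and 9.17, 11.6 and 6.74 CPM in the young ones. Pmaip1 did not pass the filter on low counts here, so a difference with age was not tested.

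The test of whether the dividing to resting difference itself depended on age called 0 of 8 members and 0% of 6187 genes (edgeR; 262 genes had an unadjusted p under 0.05). The estimates furthest from 0 were -0.66 ± 0.44 for Bbc3 and 0.52 ± 0.32 for Bcl2l11 (log2, SE; edgeR, adjusted p = 1.0).

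Single stages gave the same count. In surrogate light chain-positive cells, 0 of 6 members and 0% of 3644 genes were called by edgeR, with 101 unadjusted p under 0.05. Mcl1 had 165 and 230.2 CPM in surrogate light chain-positive cells of the aged libraries and 367, 256 and 299 CPM in those of the young ones. Both aged libraries lay below all 3 young ones, yet the log2 fold change of -0.69 ± 0.34 had an unadjusted p of 0.0579 and an adjusted p of 0.999 (edgeR). Cdkn1a stood at 0.02 ± 0.35 in that stage. In MHC-II-positive cells, 0 of 6 members and 0% of 2344 genes were called by edgeR, with 68 unadjusted p under 0.05, and the member furthest from 0 was Bbc3 at 0.51 ± 0.56 (log2, SE). With 2 aged libraries, standard errors of 0.28 to 0.60 log2 units in the resting and dividing fits set what could be seen.

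**Figure D4:**
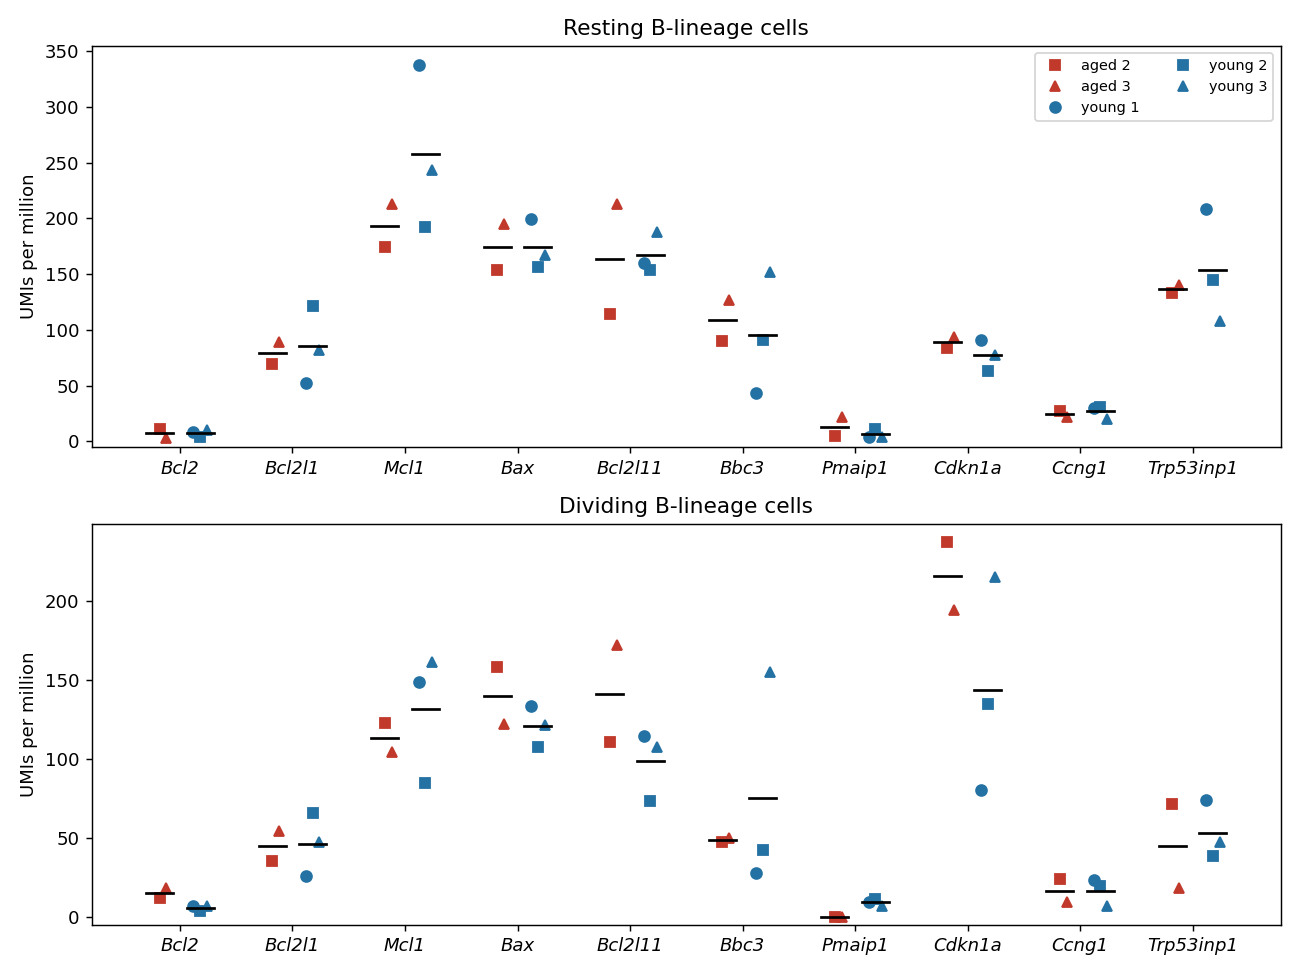
Level of the 10 members (vertical axes, CPM within the class) in resting (top) and dividing (bottom) B-lineage-like cells, aged libraries in red to the left of young libraries in blue; points are libraries and bars are group means. The aged and young points overlap for Cdkn1a in dividing cells, where young replicate 3 lies between the aged libraries at 237 and 195.

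Bcl2, Pmaip1 and Ccng1 were too scarce in B-lineage-like cells for most tests. Bcl2 summed to 13 UMIs in 319 surrogate light chain-positive cells, 7 of them in aged replicate 2, against 0 in Rag-positive, 1 in Cd2 or Ms4a1-positive and 3 in MHC-II-positive cells. The pooled ratio of MHC-II-positive over surrogate light chain-positive cells was 0.386, with an exact counting interval of 0.0705 to 1.40 that includes equality. Bcl2 averaged 9.50 ± 5.60 CPM in dividing cells and 7.37 ± 3.59 CPM in resting cells (SD, the same 5 libraries). Within libraries it was higher in dividing cells in 3 and lower in 2. The pooled ratio of dividing over resting cells was 1.06, with an exact counting interval of 0.576 to 2.02. Ccng1 had 23.7 and 9.05 CPM in dividing cells of the aged libraries and 23.4, 19.3 and 6.74 CPM in those of the young ones, against 26.9 and 21.4 CPM in resting cells of the aged and 30.3, 30.4 and 20.0 CPM in those of the young libraries. It was lower in dividing cells of 5 of 5 libraries, with overlapping ranges and no test. Pmaip1 stayed at or below 21.4 CPM in resting and 11.6 CPM in dividing cells of every library.

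In young replicate 1, the myeloid-like cells differed from the B-lineage-like cells in most members, with more Bcl2 and less Bcl2l1. In this library, the 1 with at least 10 of them, 173 myeloid-like cells were set beside 707 B-lineage-like cells. There was no test, and the exact Poisson 95% intervals cover counting error only. Of the 707 cells 584 were dividing, against 76 of the 173 myeloid-like cells, and the part of this mix in the differences was not tested. B-lineage-like cells of the other libraries had 64.6 to 101 CPM of Bcl2l1 and 4.88 to 10.6 CPM of Bcl2. All 12 neutrophil markers were present, at a summed 14140.2 CPM, and B-lineage markers summed to 775 CPM. Bcl2 had 37.0 CPM (28.9 to 46.6) in myeloid-like cells and 6.72 CPM (4.31 to 10.0) in B-lineage-like cells. Bcl2l1 had 7.19 CPM (3.93 to 12.1) in myeloid-like cells and 27.2 CPM (22.0 to 33.1) in B-lineage-like cells. The intervals were apart for both genes and ran in opposite directions.

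Pmaip1 had 34.9 CPM (27.1 to 44.3) in myeloid-like and 8.68 CPM (5.90 to 12.3) in B-lineage-like cells, and Cdkn1a 197 CPM (177 to 217) and 79.0 CPM (70.0 to 88.8). Trp53inp1 went the other way, with 14.4 CPM (9.55 to 20.8) in myeloid-like and 83.5 CPM (74.2 to 93.5) in B-lineage-like cells. Bbc3 likewise had 13.9 CPM (9.14 to 20.2) in myeloid-like and 28.6 CPM (23.3 to 34.7) in B-lineage-like cells. Bcl2l11 had 181 and 116 CPM and Mcl1 206 and 162 CPM in the same order of classes, with intervals apart. Among resting cells alone Mcl1 ran the other way, with 224 CPM (186 to 268) in myeloid-like and 338 CPM (267 to 422) in B-lineage-like cells. Among dividing cells it had 208 CPM (181 to 238) and 149 CPM (135 to 163), so no direction is read for Mcl1. Bax, at 138 and 142 CPM, and Ccng1, at 17.5 and 23.8 CPM, had intervals that overlapped. With each myeloid-like cell thinned to 1000 UMIs, so that deep cells weigh no more than others, Bbc3 had 28.9 CPM and Trp53inp1 5.78 CPM there. B-lineage-like cells were not thinned for these values, so no direction is read for Bbc3.

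Within the myeloid-like cells Cdkn1a was uneven. It had 97.2 CPM (80.4 to 116) in 77 cells led by neutrophil markers, 184 CPM (118 to 274) in 15 cells led by monocyte markers and 300.0 CPM (168 to 495) in 8 cells led by basophil markers. Dividing myeloid-like cells (76) had 157 CPM (133 to 183) and resting ones (56) 266 CPM (225 to 314), with intervals apart, in 1 library and without a test. Median depth was 9535 UMIs per myeloid-like cell of this library. After thinning to 1000 UMIs, 19.5% of all 185 myeloid-like cells held a Cdkn1a UMI (14.0 to 25.9) and 4.32% a Bcl2 UMI (1.89 to 8.34).

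**Figure D5:**
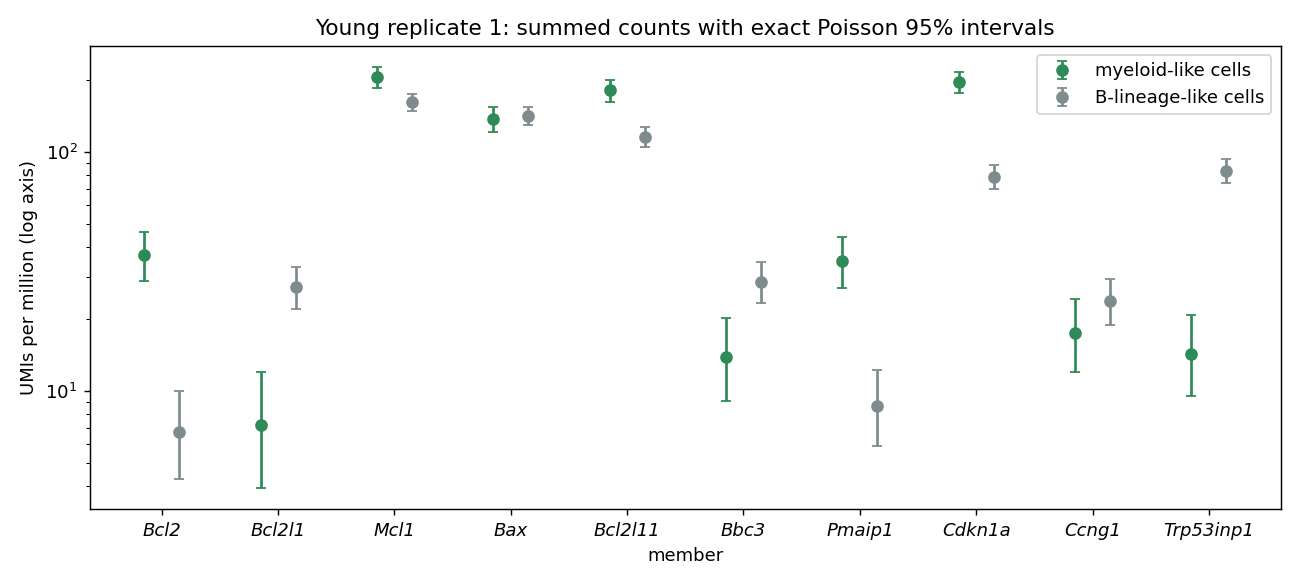
Level of the 10 members (vertical axis, CPM, log scale) in myeloid-like (green, left of each pair) and B-lineage-like cells (grey) of young replicate 1; bars are exact Poisson 95% intervals of the summed counts. Bcl2, Pmaip1 and Cdkn1a lie higher and Bcl2l1 and Trp53inp1 lower in myeloid-like cells, Bax and Ccng1 overlap, and Bbc3 lies lower as plotted but had 28.9 CPM in thinned myeloid-like cells.

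Over 24 sums of B-lineage classes and libraries, genes of like pattern were sought for 7 members among 2635 genes (Bcl2, Pmaip1 and Ccng1 were too scarce), measured by Pearson's r of log2(CPM + 10) after removing each library's mean. The sums share libraries and classes, so r is a description only. Cdkn1a was most like Gstp1 (0.929), a glutathione transferase, and Crip1 (0.917). Bcl2l1 was most like Pkig (0.889), an inhibitor of protein kinase A, and Spib (0.875), a transcription factor of B cells. Mcl1 was most like Ypel3 (0.924) and Zfas1 (0.895), Trp53inp1 like Usp3 (0.913), and Bbc3 like Aup1 (0.89). For Bax and Bcl2l11 the highest values were 0.787 with Rpl17, a ribosomal protein gene, and 0.69 with Ptk2b.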

How the data were processed

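The authors deposited 1 table of raw UMI counts per library, with 27998 Ensembl gene rows and a column per barcode; the submitters' processing notes name mm10 as the build and Cell Ranger among the tools, along with DESeq2 1.22.2, edgeR 3.24.3 and R 3.5.2, with no role stated. The rule that chose the deposited barcodes is not given in the sources used here. Symbols were matched for 27645 identifiers.

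Barcodes with at least 500 genes, at least 1000 UMIs and at most 10% mitochondrial UMIs were kept, 2116 in all, with a median of 1889.5 to 4212.5 UMIs per cell and library. Cells were clustered with scanpy 1.11.5 (2000 variable genes, 30 components, 15 neighbours, Leiden resolution 0.8), and 5 cells with at least 3 erythroid markers were set aside, a choice made after seeing the data. Scrublet marked 58 cells at an expected rate of 2%; they stayed in and were left out as an alternative. A stage needed 2 UMIs of MHC-II or surrogate light chain genes, or 1 UMI of Cd2, Ms4a1, Rag1 or Rag2, in that order of MHC-II, surrogate light chain, Cd2 or Ms4a1 and Rag. A dividing cell was put in G2/M where more G2/M than S genes were detected. A myeloid-like cell was put with the neutrophil, monocyte or basophil markers where at least 2 of that list were detected and more than of either other list.

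Counts were summed per library and class (stages with at least 10 cells) and compared with edgeR 4.0.16 in R 4.3.3 (its quasi-likelihood test after TMM scaling, on genes that passed filterByExpr; p adjusted by Benjamini and Hochberg over all genes tested, threshold 0.05). The standard error is the size of the log2 fold change divided by the square root of F. Of 15 comparisons, 6 were added after seeing the data: Cd2 or Ms4a1-positive against surrogate light chain-positive cells, age within 2 stages, and division by the surrogate light chain gate. The members, lists and gates were chosen with earlier results of these data known. Each member is always named, and of each list up to 3 genes of smallest p. Tested on simulated counts, the procedure recovered 92.3% of genes changed by 2 log2 units with age in resting cells (5876 genes), but 21.6% of those changed by 1. For dividing against resting cells (4491 genes) it recovered 98.8% and 61.7%. The simulated counts had the same fixed spread for every gene and no differences between libraries beyond depth. These shares therefore do not measure what the fits could recover in the real libraries.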

Additional observations from a re-analysis of the deposited data

Results flagged for a closer look

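Cdkn1a in G2/M over S cells moved in opposite directions in the age groups. It had 191 CPM in G2/M and 252 CPM in S cells of aged replicate 2, and 174 and 201 CPM in aged replicate 3. In young replicates 1, 2 and 3 it had 87.1, 253 and 257 CPM in G2/M cells and 76.2, 103 and 212 CPM in S cells. The mean log2 ratio was lower in aged than in young libraries by -0.84. This difference was not tested, and the G2/M sum of young replicate 3 held 5 cells and 3 Cdkn1a UMIs.

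Mcl1 in MHC-II-positive over surrogate light chain-positive cells also differed in direction. It had 222 and 232 CPM in MHC-II-positive cells and 165 and 230.2 CPM in surrogate light chain-positive cells of aged replicates 2 and 3. In young replicates 1, 2 and 3 it had 320.1, 156 and 230.4 CPM in MHC-II-positive and 367, 256 and 299 CPM in surrogate light chain-positive cells. The mean log2 ratio was higher in aged than in young libraries by 0.62, and this difference was not tested either.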

How the results depend on the processing

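The sums were recomputed with other tests, scalings, filters, gates and depths and without each library. Of the alternative values of the members' fold changes, 1196 kept their direction and side of the threshold, 37 lost a call and 8 gained one. Signs changed in 156 values whose reported estimate lay within its standard error of 0 and in 10 others, given below; none of these was called under either setting. Under thinning 7 myeloid levels moved. Thinning to 1000 UMIs per cell lowered the genes called to 773 between dividing and resting cells, 64 between G2/M and S cells, 213, 117 and 281 for MHC-II, Rag and Cd2 or Ms4a1-positive against surrogate light chain-positive cells, 29 for dividing cells with against without surrogate light chain, and 161 and 495 for division within and outside that stage; it gave 2 for age by class.

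Gates on unthinned counts gave 128 genes for G2/M, 20 for Rag and 468 for Cd2 or Ms4a1-positive cells, 547 for dividing cells by surrogate light chain and 826 for division outside that stage. Cells of at least 1000 detected genes gave 59 for Rag-positive against surrogate light chain-positive, 1 for Cd2 or Ms4a1-positive against Rag-positive and 21 for MHC-II-positive against Cd2 or Ms4a1-positive cells. DESeq2 1.42.0 gave 25 in that last comparison, 185 for dividing cells by surrogate light chain and 768 for division within that stage. Without a filter on low counts the last stage comparison gave 26, and age gave 9 in resting, 6 in dividing and 1 in MHC-II-positive cells and 1 by class. Without the library as a term (no replicate block) the counts were 34 for G2/M, 412 for MHC-II-positive against surrogate light chain-positive, 1 and 11 for the later stage pairs and 36 for dividing cells by surrogate light chain. The cause of these changes was not tested.

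Leaving out 1 library gave 139 to 301 genes for G2/M, 155 to 287 for Rag-positive against surrogate light chain-positive, 1 to 3 for Cd2 or Ms4a1-positive against Rag-positive, 21 to 64 for MHC-II-positive against Cd2 or Ms4a1-positive and 81 to 398 for dividing cells by surrogate light chain, the lowest without aged replicate 3, young 2, young 2, young 2 and young 1. Age gave 0 to 1 in resting, 0 to 3 in dividing, 0 to 24 by class, 0 to 2 in surrogate light chain-positive and 0 to 1 in MHC-II-positive cells.

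Signs changed for these members, whose reported estimates lay beyond 1 standard error of 0 without a call. With age in dividing cells, Trp53inp1 lay between -1.75 and 0.10 without 1 library (0.10 without young replicate 1 and 0.10 without aged replicate 3), and Bcl2l11 between -0.023 (without aged replicate 3) and 0.72. For Rag-positive cells Trp53inp1 lay between -0.070 (without young replicate 2) and 1.09 without 1 library, and at -0.84 with at least 1000 genes. Cdkn1a between Cd2 or Ms4a1-positive and Rag-positive cells went to 3.50, and by age and class to -0.38, with gates on unthinned counts. Thinning turned the age-by-class values of Cdkn1a to -0.36 and of Bcl2l11 to -0.54.

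Replicate numbers 2 and 3 occur in both age groups, but no label says that a number is a shared animal or batch. Deviations from the group means correlated at 0.286 and 0.18 between libraries of the same number. With 2 aged libraries these deviations mirror each other (-0.286 and -0.18 across numbers), so they cannot decide the question. Young and aged replicates 2 had median mitochondrial shares of 2.63% and 2.54% and median depths of 2748 and 2866.5 UMIs. For replicates 3 these were 4.32% and 4.26%, and 2015.5 and 1889.5 UMIs. With the replicate block, age called 19 genes in resting and 3 in surrogate light chain-positive cells, none a member, and Trp53inp1 in dividing cells went to 0.14. With no scaling beyond total UMIs the median of all genes moved from -0.04 to -0.13 between dividing and resting cells and from -0.01 to 0.14 between G2/M and S cells, and 44.4% and 60.2% of the genes called were higher, against 51.9% and 35.1%; the same members were called. Dividing cells with against without surrogate light chain had 41.8% of calls higher, against 61.4%, and division within that stage had a median of -0.13, against -0.01. Outside that stage Bcl2l11 gained a call (-0.55, edgeR adjusted p = 0.0258).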
